A study of Mus musculus with 6 samples.

Results

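The 6 genes described here encode the protein side of the 7SK small nuclear ribonucleoprotein and its cargo, the kinase P-TEFb: Hexim1, Larp7 and Mepce, whose products bind 7SK RNA, and Cdk9, Ccnt1 and Ccnt2, whose products form P-TEFb. They were chosen by name and matched through GENCODE M21 symbols, and all 6 were found among 49671 gene rows and were tested among 18040 genes. RNA-seq was made from whole testes at the age of 12 days post-partum, on the C57BL/6J background, with 3 Ankrd31-/- samples (knockout) set against 3 Ankrd31+/+ samples (wild type). The labels give neither the design of the knockout allele, nor litters, nor whether each sample is 1 animal. The question was whether the protein partners followed the higher level of the 7SK RNA gene, Rn7sk, which was already known from these libraries when the 6 genes were picked.

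7SK RNA is a small nuclear RNA made by RNA polymerase III. It holds P-TEFb in an inactive store: Mepce caps and protects the 5′ end, Larp7 binds the 3′ end, and Hexim1, bound to the RNA, inhibits the kinase Cdk9. Released P-TEFb, which is Cdk9 with cyclin T1 (Ccnt1) or cyclin T2 (Ccnt2), phosphorylates the RNA polymerase II tail and the pausing factors, so that paused polymerase moves into the gene body. Larp7 has a further role in guiding the modification of U6 spliceosomal RNA.

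Both ends of the mouse 7SK RNA are shown because they carry the contacts of Hexim1, Mepce and Larp7. They were copied as DNA letters from the GENCODE M21 transcript of Rn7sk (331 bases, mm10 minus strand, chr9:78175303-78175633). In the first 120 bases (chr9:78175514-78175633), capitals mark GATC, the repeated motif in the first stem-loop at which Hexim1 is known to bind. In the last 60 bases (chr9:78175303-78175362), capitals mark the closing run of T, the kind of tail that La-related proteins recognise.
Rn7sk first 120 bases: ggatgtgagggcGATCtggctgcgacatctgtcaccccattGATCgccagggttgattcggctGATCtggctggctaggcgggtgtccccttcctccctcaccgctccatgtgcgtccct
Rn7sk last 60 bases: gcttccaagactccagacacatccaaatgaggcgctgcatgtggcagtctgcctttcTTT
The motif GATC, which reads the same on both strands, began at positions 13, 42 and 64 counted from the first base, and all 3 copies in the RNA lay in this window. Of 137364 annotated transcripts of at least 120 bases, 0.521% held 3 or more GATC in their first 120 bases and 27.6% held at least 1.

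Rn7sk set the size against which the partners were read. In CPM, the count scaled by the effective library size, it stood at 27.3, 18.5 and 26.3 in knockout replicates 1, 2 and 3, against 15.1, 12.6 and 14.2 in the wild-type replicates. The lowest knockout library lay above the highest wild-type one. The log2 fold change, knockout over wild type, was 0.78 ± 0.15 (SE) with a 95% confidence interval of 0.45 to 1.12. In edgeR's quasi-likelihood test the unadjusted p was 0.000463 and the gene did not pass after Benjamini-Hochberg adjustment over all genes. With the replicate number as a block it was 0.77 ± 0.09 and passed (edgeR adjusted p = 0.00869). With the block but without pair 3 it was 0.71 and did not pass (edgeR adjusted p = 0.484), in a fit where 0 of 18171 tested genes passed. Of the other tools without the block, DESeq2 called it (adjusted p = 0.0214) and limma voom did not (adjusted p = 1; 0.0530 with the block). These values restate why the partners were examined and are no separate result. Rn7sk had 286 to 600 counts per library, below the 1921 to 3155 of the protein genes. The 8 tested genes of a list of other structured RNAs, chosen with their behaviour known, had log2 fold changes of 0.33 to 2.23. How well the libraries captured 7SK RNA, and whether the Rn7sk count tracks its abundance, was not tested. The adjacent noncoding gene C920006O11Rik, whose start lies 280 bases from Rn7sk on the other strand, had 6.37, 5.22 and 4.64 CPM in knockout and 6.11, 5.37 and 4.54 CPM in wild-type replicates 1, 2 and 3.

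None of the 6 protein genes followed Rn7sk in its size of change. Their log2 fold changes lay between 0.0003 and 0.02, with a median of 0.01, against -0.005 for all tested genes. No member passed in edgeR without the block, where 0% of tested genes passed, nor with it, where 0.0443% did. At an unadjusted p under 0.05 the members' count was also 0 in both fits, where edgeR called 2.07% of tested genes without the block and 7.48% with it. DESeq2 and limma voom also called 0 members, with or without the block. Over all genes, DESeq2 called 2 of 30982 without the block and 11 with it, and limma voom 0 and 1 of 18040. In all 6 members the knockout and wild-type levels overlapped; 6.59% of tested genes had levels that did not.

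**Figure D1:**
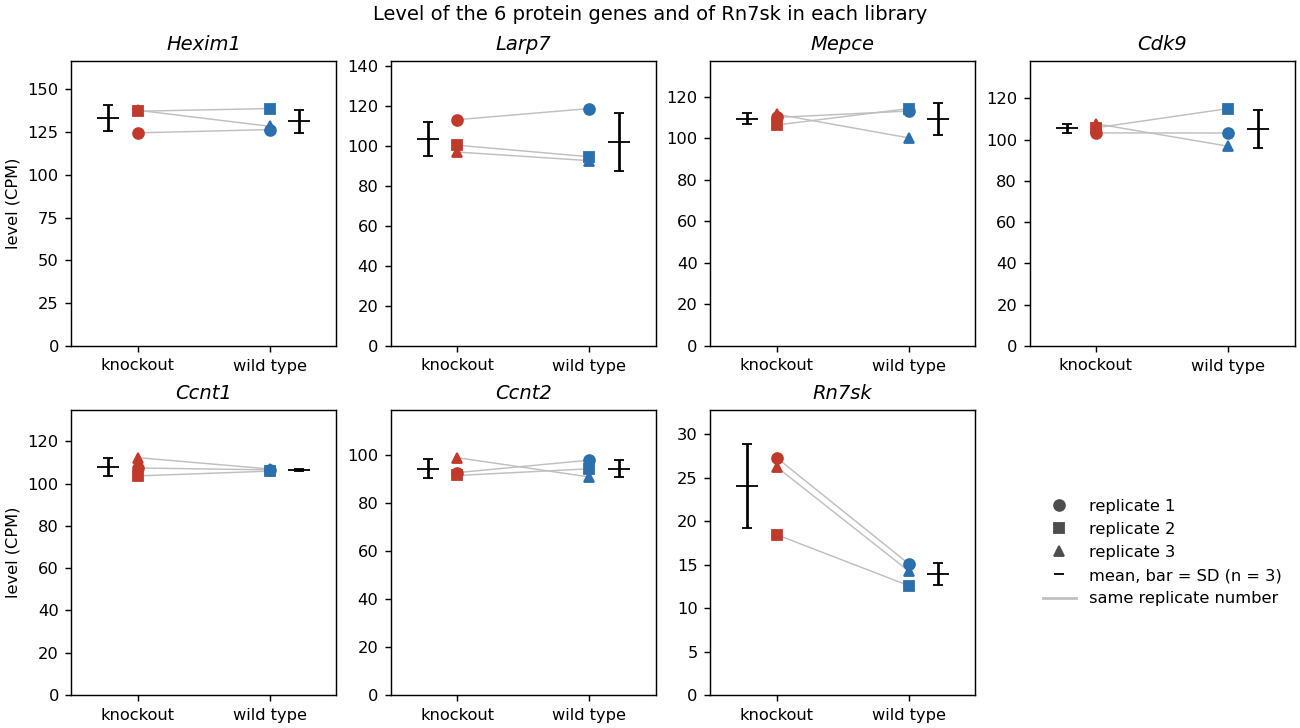
Level in CPM (vertical axis, from 0) of the 6 protein genes and of Rn7sk in the 3 knockout and 3 wild-type libraries; symbols mark the replicate number, grey lines join libraries of the same number, and black marks give mean and SD. The groups overlap for each protein gene, whereas the 3 knockout values of Rn7sk lie above its 3 wild-type values.

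Of the RNA-binding partners, Hexim1, the inhibitor of P-TEFb, had the highest level in CPM. It stood at 125, 137 and 138 CPM in knockout replicates 1, 2 and 3, against 126, 139 and 128 CPM in wild-type replicates 1, 2 and 3. Replicate 1 was the lowest library of each genotype. The means were 133 ± 7.48 CPM in knockout and 131 ± 6.62 CPM in wild type (SD, n = 3 each), and the log2 fold change was 0.02 ± 0.07 (SE), with an interval of -0.13 to 0.17. The gene has 1 exon (ENSMUSG00000048878, chr11:103116231-103119725, plus strand).

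Larp7, which protects the 3′ end of 7SK RNA, varied most among the 6. Its level was 113, 100.2 and 96.8 CPM in knockout replicates 1, 2 and 3, against 119, 94.5 and 92.5 CPM in the wild-type replicates. Replicate 1 was the highest library in both genotypes, and the highest of the 6 libraries was 1.28 times the lowest. The means were 103 ± 8.51 CPM in knockout and 102 ± 14.5 CPM in wild type (SD, n = 3 each), and the log2 fold change was 0.02 ± 0.10 (SE), with an interval of -0.21 to 0.25, the widest of the members. Without wild-type replicate 1 the value became 0.14, which did not pass (edgeR adjusted p = 0.685). Larp7 (ENSMUSG00000027968, chr3:127536714-127553349, minus strand, 10 merged exons) spans the genes of the miR-302 and miR-367 cluster, 5 microRNA genes on the opposite strand with 0 counts in all 6 libraries.

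The high Larp7 level in replicate 1 of both genotypes went with markers of early meiotic germ cells. Summed over 8 markers such as Sycp3, Dmc1 and Stra8, these stood at 1678 CPM in knockout replicate 1 and 1678 CPM in wild-type replicate 1. In the other libraries the sum was 1174 and 1354 CPM in knockout replicates 2 and 3, and 919 and 1146 CPM in wild-type replicates 2 and 3. There the order differed: in both genotypes the sum was lower in replicate 2 than in replicate 3, and Larp7 was higher. The part of cell composition in the Larp7 level was not tested. In whole tissue, fewer cells of a type and less RNA per cell cannot be told apart.

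Mepce, the enzyme that caps 7SK RNA, stood at 110.1, 106 and 112 CPM in knockout replicates 1, 2 and 3, against 113, 114 and 100.2 CPM in the wild-type replicates. The 3 knockout values lay inside the range of the wild-type values. The means were 109 ± 2.68 CPM in knockout and 109 ± 7.86 CPM in wild type (SD, n = 3 each), and the log2 fold change was 0.002 ± 0.07 (SE), with an interval of -0.15 to 0.15. The gene (ENSMUSG00000029726, chr5:137781906-137787655, minus strand) has 4 merged exons.

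Of the P-TEFb subunits, the kinase gene Cdk9 had 103, 106 and 108 CPM in knockout replicates 1, 2 and 3, against 103, 115 and 96.8 CPM in the wild-type replicates. Like Mepce, it was spread less in the knockout libraries, and its highest and lowest values were both wild type. The means were 106 ± 2.23 CPM in knockout and 105 ± 9.27 CPM in wild type (SD, n = 3 each), and the log2 fold change was 0.007 ± 0.07 (SE), with an interval of -0.15 to 0.17. Cdk9 (ENSMUSG00000009555, chr2:32705784-32713076, minus strand, 6 merged exons) overlaps 2 microRNA genes, Mir2861 and Mir3960, each with 0 counts in the 6 libraries.

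The cyclin T1 gene Ccnt1 was the steadiest of the 6. It had 107, 104 and 112 CPM in knockout replicates 1, 2 and 3, against 106, 106 and 107 CPM in the wild-type replicates, and the highest library was 1.08 times the lowest. The means were 108 ± 4.34 CPM in knockout and 106 ± 0.502 CPM in wild type (SD, n = 3 each), with a log2 fold change of 0.02 ± 0.06 (SE) and an interval of -0.11 to 0.15. Ccnt1 (ENSMUSG00000011960, chr15:98538689-98570923, minus strand, 10 merged exons) overlaps the antisense gene 9330020H09Rik over 2260 bases. That gene held 75, 76 and 74 counts in knockout and 73, 98 and 66 counts in wild-type replicates 1, 2 and 3, against at least 2258 for Ccnt1. The kit keeps strand, and the strand setting of the counting is not given in the sources used here.

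Ccnt2, which encodes cyclin T2, had 92.8, 91.6 and 99.0 CPM in knockout replicates 1, 2 and 3, against 98.0, 94.4 and 90.9 CPM in the wild-type replicates. The ranges covered each other almost fully. The means were 94.5 ± 4.01 CPM in knockout and 94.4 ± 3.52 CPM in wild type (SD, n = 3 each), with a log2 fold change of 0.0003 ± 0.06 (SE) and an interval of -0.14 to 0.14. The gene (ENSMUSG00000026349, chr1:127774164-127808061, plus strand) has 8 merged exons.

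Each member was also set against Rn7sk within every library, as the difference of log2 CPM between the protein gene and Rn7sk in every library. For Hexim1 this difference was 2.188, 2.89 and 2.39 in knockout replicates 1, 2 and 3, against 3.07, 3.46 and 3.17 in the wild-type replicates. Knockout minus wild type was -0.74 for Hexim1, -0.74 for Larp7, -0.76 for Mepce, -0.75 for Cdk9, -0.75 for Ccnt1 and -0.76 for Ccnt2. Rn7sk was picked for its known difference and all 6 values share it, so these differences mainly restate the Rn7sk change and are given as a description, with no test.

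The confidence intervals give the size of change that the fit leaves possible. In the fit without the block, the highest upper bound among the members was 0.25, for Larp7, which is 19.04% above wild type. The lower bound for Rn7sk in that fit was 0.45, which is 36.2% above wild type (plot of fold changes with intervals). With the replicate block both intervals were narrower. They were -0.08 to 0.13 for Larp7, again the highest upper bound among the members, and 0.58 to 0.96 for Rn7sk. The members' counts were 1921 to 3155 per library, for which counting error alone is 2.28% to 1.78%. Differences inside these intervals were left possible with 3 samples per genotype, so that equal levels are not shown.

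**Figure D2:**
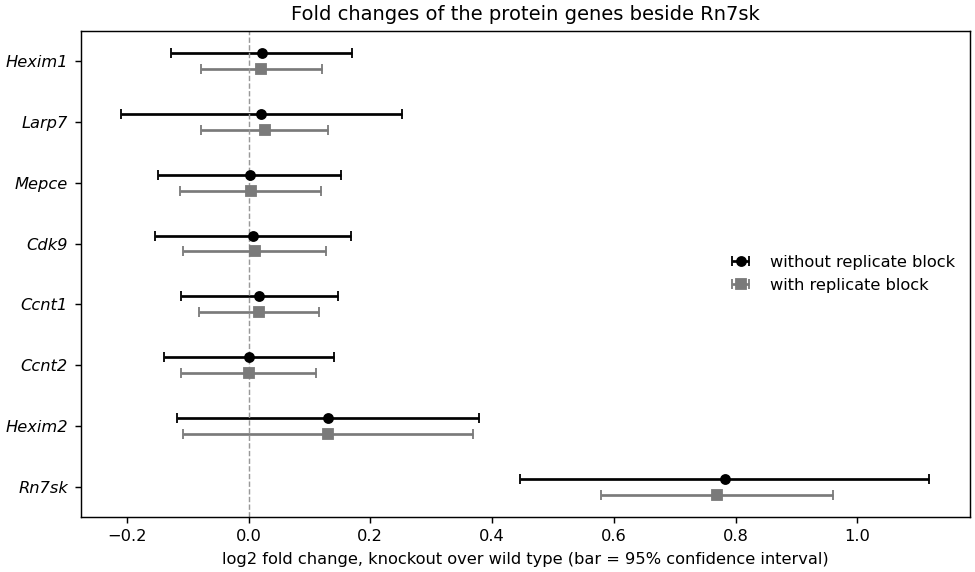
Log2 fold change, knockout over wild type (horizontal axis), with 95% confidence intervals, for the 6 members, the paralog Hexim2 and Rn7sk; black circles are from the fit without the replicate block and grey squares from the fit with it. The intervals of the 6 members span 0 and end at or below 0.25, while that of Rn7sk begins at 0.45 in the fit without the block.

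Small fold changes were common among genes of this level. Of the 1121 tested genes whose mean CPM lay within the members' range, 27.5% had a log2 fold change no further from 0 than 0.02, the largest of the members, and their median absolute value was 0.04. The members' own biological coefficients of variation were 6.09% for Ccnt1 to 9.41% for Larp7, against a median of 6.83% for those genes.

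Within pairs of libraries of the same number, the members did not keep to one direction. In pair 1, 2 of 6 were higher in knockout, with log2 ratios of -0.08 to 0.01, and in pair 2, 1 of 6 was higher, with -0.12 to 0.09. In pair 3, 6 of 6 were higher, with 0.07 to 0.16. Rn7sk had 0.86, 0.55 and 0.88 in pairs 1, 2 and 3. The share of all tested genes that was higher in knockout was 49.5%, 49.6% and 49.4% in the 3 pairs.

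**Figure D3:**
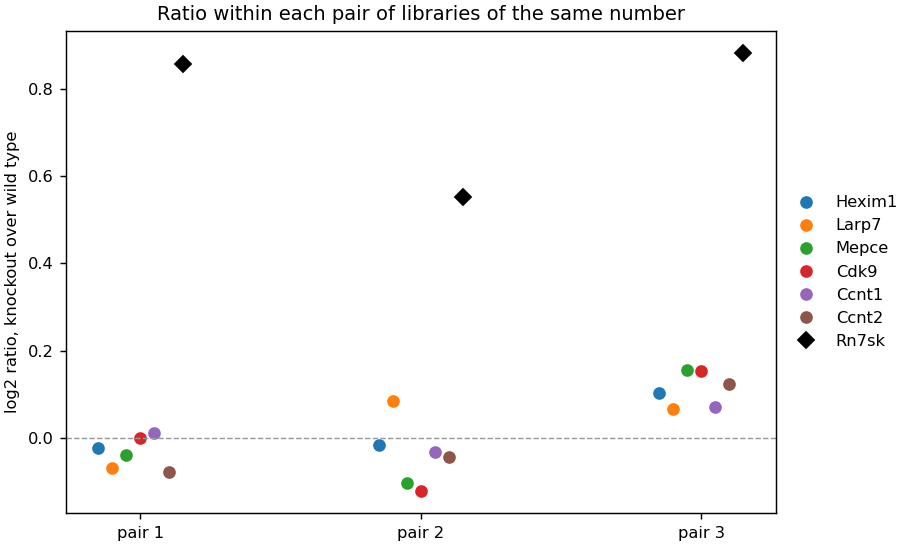
Log2 ratio of knockout over wild-type CPM (vertical axis) within each of the 3 pairs of libraries with the same replicate number, for the 6 members (circles) and Rn7sk (diamonds). Rn7sk lies between 0.55 and 0.88, and the members lie between -0.12 and 0.16, all above 0 in pair 3.

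Pair 3 holds the library with the highest level of epididymis and rete markers. The summed level of 6 such markers was 58.8 CPM in wild-type replicate 3, against 2.69 to 7.70 CPM in knockout libraries and 2.81 and 5.54 CPM in the other wild-type libraries; Lcn8, one of them, had 0 counts in each knockout library and 2 in wild-type replicate 3. The part of this tissue in the pair 3 ratios was not tested. With the block but without pair 3, the log2 fold changes were -0.02 for Hexim1, 0.008 for Larp7, -0.07 for Mepce, -0.06 for Cdk9, -0.009 for Ccnt1 and -0.06 for Ccnt2. None passed in edgeR, where 0 of 18171 tested genes did. Each member's fold change took the opposite sign under at least 1 of the alternatives tried.

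Levels were compared between genes per length, as RPKM (CPM per kilobase of summed exon length, averaged over the 6 libraries). Larp7 stood at 43.4 ± 4.51 RPKM (SD over 6 libraries), Hexim1 at 37.8 ± 1.83, Mepce at 30.8 ± 1.48, Cdk9 at 22.8 ± 1.31, Ccnt1 at 11.7 ± 0.312 and Ccnt2 at 7.65 ± 0.273 RPKM. The ranges of Larp7 and Hexim1 overlapped between libraries, and each other neighbouring pair in this order was apart. All 6 were above the median tested gene, at 6.09 RPKM.

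This order depends on which exons are counted as the gene. Taking the longest protein-coding transcript of each gene as its length put Cdk9 first, at 60.7 ± 3.49 CPM per kilobase, with Larp7 next at 48.4 ± 5.03, Hexim1 at 37.8 ± 1.83 and Mepce at 35.0 ± 1.68. Ccnt1 and Ccnt2 then stood at 14.5 ± 0.386 and 14.0 ± 0.5005, with overlapping ranges. Under both lengths the cyclin T genes were below Cdk9 and the 3 RNA-binding partners.

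**Figure D4:**
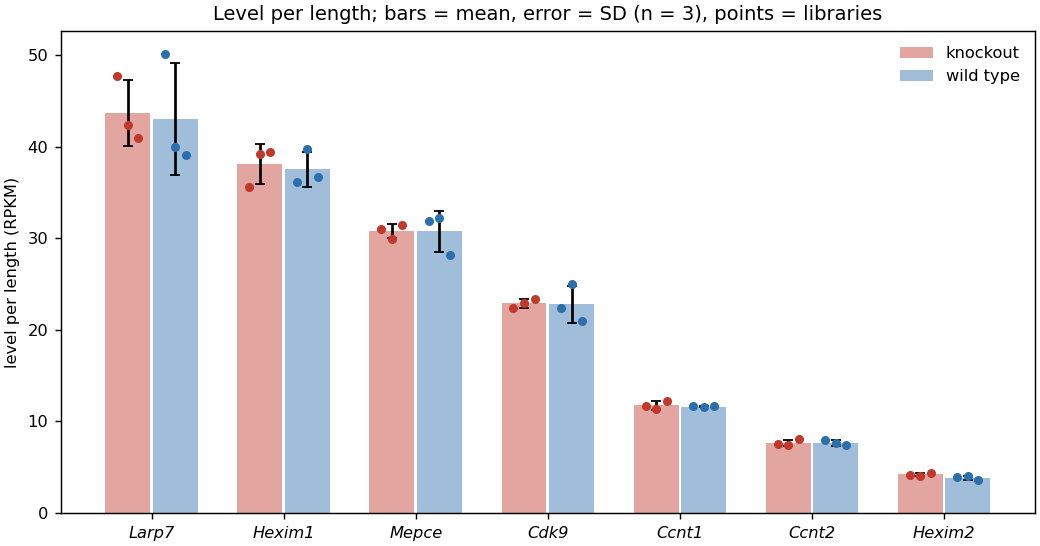
Level per length in RPKM (vertical axis) of the 6 members and Hexim2 in knockout (left bar of each pair) and wild-type libraries; bars are means, error bars SD (n = 3) and points single libraries. Larp7, at 43.4 RPKM over the 6 libraries, is the highest under summed exon length and Hexim2, at 4.03, the lowest.

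The balance between alternative subunits was also compared. Cyclin T2 made up 39.1%, 39.6% and 39.5% of the summed cyclin T level per length in knockout replicates 1, 2 and 3, against 40.6%, 39.8% and 38.7% in the wild-type replicates. The knockout values lay inside the wild-type range, and the exact two-sided permutation test, whose smallest p for 3 against 3 values is 0.1, gave p = 0.7. The shares here take summed exon length, and their size depends on the length used. With the longest protein-coding transcript as length, Ccnt1 and Ccnt2 stood at 14.5 and 14.0 CPM per kilobase. Hexim2, a paralog of Hexim1 that can also inhibit P-TEFb, lies downstream of it on the same chromosome (chr11:103132429-103139876). It had 9.93, 9.66 and 10.4 CPM in knockout and 9.28, 9.59 and 8.52 CPM in wild-type replicates 1, 2 and 3. These groups just failed to overlap, as did those of 6.59% of tested genes, and the gene did not pass in edgeR, at a log2 fold change of 0.13 ± 0.11 (unadjusted p = 0.267). Its share of the summed Hexim level per length was 9.97 ± 0.555% in knockout and 9.30 ± 0.427% in wild type (SD, n = 3 each; exact two-sided permutation p = 0.2).

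Larp7 and Mepce start head to head with other genes, and both partner genes are known from DNA repair or meiosis. Larp7 lies 139 bases from Zgrf1, which encodes a helicase of DNA repair, and Mepce lies 142 bases from Zcwpw1, which encodes a reader of the histone marks that Prdm9 sets at recombination hotspots. The sequences around them are shown because each holds the starts of both genes and runs past them on either side. They are RefSeq promoters of build GRCm38.p6, which cover 300 bases around a start, most of them before it. Capitals mark TGACGTCA, the palindromic site of CREB and ATF factors, and TGCGCA, the half-site of the factor NRF1, both searched on both strands and picked after the sequences were seen.
Larp7, chr3:127553300-127553599, minus strand: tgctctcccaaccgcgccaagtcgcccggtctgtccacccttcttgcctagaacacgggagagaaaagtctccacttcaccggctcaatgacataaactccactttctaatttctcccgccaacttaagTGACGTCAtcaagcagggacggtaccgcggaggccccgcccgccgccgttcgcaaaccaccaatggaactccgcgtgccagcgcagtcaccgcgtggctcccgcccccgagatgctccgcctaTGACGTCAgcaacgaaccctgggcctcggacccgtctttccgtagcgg
Zcwpw1, chr5:137787552-137787851, plus strand: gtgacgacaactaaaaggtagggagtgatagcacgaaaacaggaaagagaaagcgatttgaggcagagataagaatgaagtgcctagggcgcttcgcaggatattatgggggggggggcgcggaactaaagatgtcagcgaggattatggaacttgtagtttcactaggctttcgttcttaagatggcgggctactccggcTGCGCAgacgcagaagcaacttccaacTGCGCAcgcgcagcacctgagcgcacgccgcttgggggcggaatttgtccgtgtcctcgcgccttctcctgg
The start of Zgrf1 falls at base 111 of the Larp7 run, and that of Mepce at base 104 of the Zcwpw1 run. The Larp7 run held TGACGTCA 2 times, 1 copy between the starts and 1 just inside Larp7; of 32851 promoters of the same length 1.79% held it at least 1 time and 13 at least 2 times. The Zcwpw1 run held TGCGCA 2 times, a letter string found at least 1 time in 7.76% of promoters and at least 2 times in 1.05%. Neither run held the other's motif, and the matches are letters and not measured binding.

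The head-to-head partners did not pass either. Zgrf1 had 40.0, 32.2 and 38.1 CPM in knockout replicates 1, 2 and 3, against 43.5, 27.7 and 36.2 CPM in the wild-type replicates (log2 fold change 0.04 ± 0.16, SE). Like Larp7, it was highest in replicate 1 of both genotypes, but it was lowest in replicate 2, where Larp7 was lowest in replicate 3. Zcwpw1 had 248, 207 and 222 CPM in knockout and 242, 176 and 211 CPM in wild-type replicates 1, 2 and 3 (log2 fold change 0.11 ± 0.11). Wild-type replicate 2 was its lowest library and the highest of Mepce. Neither passed in edgeR, with or without the block. With the block, Zgrf1 had 0.05 ± 0.07 and Zcwpw1 0.11 ± 0.05 (SE). Zcwpw1 was higher in 3 of 3 pairs (edgeR with the block, unadjusted p = 0.0309, adjusted p = 0.622). In that fit 7.48% of tested genes had an unadjusted p under 0.05.

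**Figure D5:**
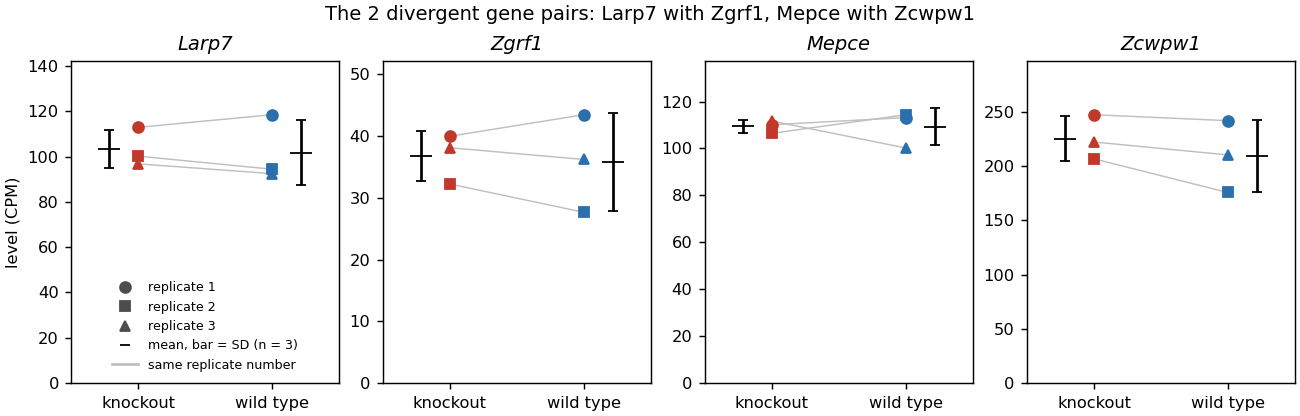
Level in CPM (vertical axis, from 0) of Larp7 and its head-to-head neighbour Zgrf1, and of Mepce and its neighbour Zcwpw1, in knockout and wild-type libraries; symbols mark replicate numbers and black marks mean and SD. Replicate 1 is highest for Larp7, Zgrf1 and Zcwpw1 in both genotypes, and for Mepce in neither.

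The genes whose levels over the 6 libraries were most like each member's, by Pearson's r of log2 CPM among 16090 genes, were as follows. For Hexim1 they were Gstcd (r = 0.991) and Bclaf1 (0.989), for Larp7 Wdr62 (0.997) and Stx17 (0.994), and for Mepce Mrpl55 (0.989) and Mettl2 (0.985). For Cdk9 they were Rpl37a (0.984) and Gtf3c2 (0.978), for Ccnt1 Zfp14 (0.984) and Stard8 (0.980), and for Ccnt2 Wdr20 (0.983) and Atxn2 (0.978). These are descriptions over 6 points each, picked as the highest of many. An r over 0.9 was reached by 493 genes for Larp7 and by 39 genes for Ccnt2, the most and fewest among the members.

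The genes around P-TEFb were read by list. Of all tested genes, 0% passed in edgeR without the block and 0.0443% with it. At these shares a list of this size without a call is no trait of its own. Counts of higher and lower genes are from the fit without the block, where 8618 of 18040 tested genes were higher in knockout. Of 11 genes that release or recruit P-TEFb, 7 were higher and 4 lower with a median log2 fold change of 0.007, and 0 passed in either direction in edgeR, with or without the block. Ppm1g, a phosphatase that frees P-TEFb from 7SK, had 0.08 ± 0.07 (SE), and Trim28, which tethers the 7SK complex at promoters, had -0.06 ± 0.06. Of 5 other proteins that bind 7SK RNA, 1 was higher and 4 lower (median -0.008), 0 passed, and Hnrnpa1 had -0.10 ± 0.08 and the helicase gene Dhx9 -0.05 ± 0.07.

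Downstream of P-TEFb, 9 of 10 genes of the super elongation complex, which carries the active kinase, were tested, with 4 higher and 5 lower. Their median was -0.03, 0 passed with or without the block in edgeR, and Aff3 had -0.27 ± 0.13 and the scaffold gene Aff4 0.11 ± 0.07 (SE). Ell3 was below the count filter, at 0.183 to 0.270 CPM in knockout and 0.407 to 0.572 CPM in wild-type libraries. Of 16 pausing and elongation factors 13 were higher (median 0.04) and 0 passed; Nelfe, a subunit of the pausing complex NELF, had 0.13 ± 0.08 and the elongation factor gene Rtf1 0.08 ± 0.06. Of 9 other transcription kinases and cyclins 5 were higher (median 0.02) and 0 passed, and the Mediator kinase gene Cdk19 had 0.12 ± 0.06 and Cdk13 0.07 ± 0.06. In edgeR the count of genes at an unadjusted p under 0.05 was 0 in each of these 5 lists without the block. With it, under which 7.48% of all tested genes were below 0.05, the count was 2 of 9 for the super elongation complex (Aff3 and Aff4), 1 of 16 for the pausing and elongation factors (Nelfe), 1 of 9 for the kinases and cyclins (Cdk19), and 0 for the other two lists. Leaving out 1 library gave -0.41 to -0.13 for Aff3, 0.04 to 0.16 for Aff4 and 0.07 to 0.20 for Nelfe. Trim28, Mllt1, Rtf1 and Cdk19 had groups that did not overlap, as had 6.59% of tested genes; Mllt1 was named after its values were seen. DESeq2 and limma voom called 0 genes in each.

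Genes that make or bind RNAs of the 7SK kind were read in the same way, again beside the 8618 of 18040 tested genes that were higher. Of 21 genes of the RNA polymerase III machinery 12 were higher and 9 lower (median 0.008) and 0 passed; Snapc3, a subunit of the complex that binds small nuclear RNA promoters, had 0.08 ± 0.08 and the polymerase subunit gene Polr3gl 0.10 ± 0.10 (SE). Of 6 genes for La and La-related proteins 6 were higher (median 0.07) and 0 passed in edgeR with or without the block. Ssb, which encodes La itself, had 425, 438 and 416 CPM in knockout and 405, 409 and 407 CPM in wild-type replicates 1, 2 and 3. Its groups did not overlap, as in 6.59% of tested genes, and the log2 fold change was 0.07 ± 0.06. Larp6 had 0.32 ± 0.25, and 0.12 to 0.60 when 1 library was left out. Without the block, edgeR gave 0 genes of either list an unadjusted p under 0.05; with it the count was 1 of 6 for the La list and 0 for the polymerase list, against 7.48% of all tested genes. That gene was Larp1b, named after its values were seen, with a blocked log2 fold change of 0.17 ± 0.05, higher in 3 of 3 pairs (edgeR unadjusted p = 0.00676, adjusted p = 0.494). DESeq2 and limma voom called 0 genes of either list.

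Other structured RNAs, a list chosen with their behaviour in these libraries known, were also described. It held 16 genes, of which 8 were too low to be tested. The 8 tested ones had log2 fold changes of 0.33 to 2.23, with 8 of 8 at an unadjusted p under 0.05 without the block and 7 of 8 with it, against 2.07% and 7.48% of all tested genes; since the list was chosen on these libraries, nothing is read from these counts. Gm23935 passed in edgeR with the block (adjusted p = 0.0295), and none passed in the fit without it. DESeq2 called 2 of the list with the block and 0 without it, and limma voom 0. Rmrp, the RNA of RNase MRP, had 8.33, 8.06 and 12.0 CPM in knockout and 6.11, 4.18 and 4.59 CPM in wild-type replicates 1, 2 and 3. It passed with the block without pair 1 (edgeR adjusted p = 0.0185), an alternative chosen after seeing the data. Gm22513 had 1.05, 1.88 and 1.85 CPM in knockout and 0.407, 0.264 and 0.331 CPM in wild type. It passed without a filter on low counts (edgeR adjusted p = 0.00501) and with the block without pair 1 (0.0189) or pair 2 (0.0427). Gm42418, which overlaps ribosomal RNA, had 11053, 6881 and 10594 CPM in knockout and 6457 (replicate 1), 7043 (replicate 2) and 7874 CPM (replicate 3) in wild type. The knockout libraries had the same order by Gm42418 and by Rn7sk, with replicate 1 highest and replicate 2 lowest. The order of the wild-type libraries differed, as Gm42418 was lowest in replicate 1, where Rn7sk was highest. The part of ribosomal RNA carry-over in the Rn7sk level was not tested. Reads shared with 7SK-derived pseudogenes were not examined, and how the counting treated reads with several matches is not stated, so the Rn7sk counts are uncertain in this respect.

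Totals were 21014060 to 22706296 counts per library. Ankrd31, the targeted gene, had 40.8, 33.2 and 38.0 CPM in knockout and 84.9, 52.3 and 63.2 CPM in wild-type replicates 1, 2 and 3. Its log2 fold change was -0.84 ± 0.17 and did not pass in edgeR. With the block it was -0.82 ± 0.07 and passed (edgeR adjusted p = 0.00505). With the block but without pair 3 it was -0.86 and did not pass (edgeR adjusted p = 0.316), where 0 of 18171 tested genes passed. Reads outside a deleted part can contribute to the Ankrd31 counts. The tissue label was matched by its markers: 3 general germ cell genes summed to 1127 to 1329 CPM in knockout and 1054 to 1350 CPM in wild-type libraries, and 7 Sertoli cell genes to 5161 to 5500 CPM in knockout and 4767 to 5416 CPM in wild-type libraries. Leydig cell markers varied more, at 246 to 749 CPM in knockout and 329 to 388 CPM in wild-type libraries. These sums describe the tissue and do not show equal cell composition. In edgeR without the block, 7 of 8 early meiotic markers were higher in knockout and 4 of 4 endothelial markers were lower. None of these passed, as none of all tested genes did.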

How the data were processed

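Directional RNA-seq libraries, per the labels' protocols, came from whole testes of 3 Ankrd31 knockout and 3 wild-type samples. Their raw gene counts stand in 1 table that the authors deposited. The tools named in the submitters' processing notes are bcl2fastq 2.19.1, GSNAP and featureCounts 1.6.0, with the build mm10; how strand and reads with several matches were treated, and which annotation was used, is not stated there. The length column gives the summed exon length per gene, per the file headers.

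Of 49763 rows, 92 spike-in rows with 1 count in all were left out. GENCODE M21 gave symbols to 49412 of 49671 gene rows, and all 6 members had the same start and end there as in the table. Columns were joined to samples by title and grouped by genotype.

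The main test was edgeR 4.0.16 under R 4.3.3 (filterByExpr, TMM, robust quasi-likelihood F test, two-sided), with Benjamini-Hochberg adjustment over 18040 genes and a threshold of 0.05. SE is the log2 fold change divided by the root of F, and intervals use the moderated degrees of freedom. Alternatives were DESeq2 1.42.0, limma 3.58.1 voom, RLE and total scaling, no filter, and leaving out each library. Exact permutation tests ran over the 6 libraries, with a prior count of 0.5 for log2 CPM; the p planned for the members minus Rn7sk is not printed, since Rn7sk was chosen for its difference. The fit was tested on a single simulated data set with the spread of these libraries but no link between libraries of the same number. It recovered most changed genes, least often at the smallest change simulated. That change was larger than any within the members' intervals, so recovery of changes as small as those was not tested. The share of unchanged genes among the calls of the fit was above the nominal 0.05, more so with the block. Calls may therefore be less certain than their adjusted p. As the simulated libraries were not paired, they cannot decide how certain calls with the block are in these data.

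Libraries with the same replicate number deviated together from their group means (r = 0.42, 0.26 and 0.28, each over 0.1), so the replicate number was also fitted as a block. This pairing comes from the data, since the labels name no shared litter or day. The main fit, with its SE and intervals, and the printed exact permutation tests took no account of it. The blocked value is given where it changes a call. The labels do not say that replicates are separate animals, so p-values measure the spread between these samples. No library was a duplicate (chi-square per degree of freedom of at least 7.94 within groups).

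The members and lists were chosen with earlier results of these data known. Named genes were the members, Rn7sk, Ankrd31, Hexim2, the 2 genes of each transcription or RNA list with the smallest p, the 2 genes most like each member in log2 CPM (mean of at least 1 CPM), and genes within 5000 bases; Gm23935, Gm42418, Ell3 and the motifs were picked after their values were seen. Sequences came from GENCODE M21 and RefSeq promoters of GRCm38.p6, which held 5 of the 6 members.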

Additional observations from a re-analysis of the deposited data

How the results depend on the processing

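The count of members past the threshold was 0 in the main fit and under all 17 alternatives, and the replicate block changed no call of a member. Over all tested genes, 0 of 18040 passed in the main fit. The most under any alternative was 63 of 18104, with the block without pair 1. At these shares the lack of a call is no trait of the members. Their median log2 fold change stayed within -0.04 to 0.04. The signs near 0 changed as follows. With the replicate block, Ccnt2 had -3.04e-05. With library totals only, Mepce had -0.0142, Cdk9 -0.00874 and Ccnt2 -0.0159. Among alternatives chosen after seeing the data, the replicate block without pair 3 gave -0.0185 for Hexim1, -0.0710 for Mepce, -0.0602 for Cdk9, -0.00898 for Ccnt1, -0.0605 for Ccnt2 and -0.00115 for Polr3gl; without pair 2 it gave -0.00284 for Larp7 and -0.0248 for Zgrf1, and limma voom with the block gave -0.000163 for Ccnt2. The cause was not tested. Leaving out 1 library gave -0.00390 to 0.0679 for Hexim1, -0.0474 to 0.145 for Larp7, -0.0491 to 0.0367 for Mepce, -0.0406 to 0.0787 for Cdk9, -0.0117 to 0.0546 for Ccnt1, -0.0341 to 0.0315 for Ccnt2, -0.12 to 0.21 for Zgrf1 and -0.00391 to 0.22 for Zcwpw1, and a cyclin T2 share difference of -0.780 to 0.157 percentage points. Rn7sk was higher under all 17 alternatives. It passed with edgeR and the replicate block (0.77), DESeq2 (0.79), DESeq2 with the block (0.77), and the block without pair 1 (0.73) or pair 2 (0.87). It did not pass with the block without pair 3 (0.71), where 0 of 18171 tested genes passed. Leaving out 1 library gave 0.68 to 0.95 for Rn7sk. The 3 samples per genotype limit the precision.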
